A study of Mus musculus with 27 samples.

Results

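The mu-class glutathione transferase cluster of mouse chromosome 3 holds 7 genes, Gstm1 to Gstm7, and was followed in ribosome-bound messenger RNA of striatal neurons with and without the histone methyltransferase G9a (gene Ehmt2). The members are the 7 listed symbols among 18193 gene symbols on the array, and all 12 probe sets that carry 1 of them were used. The cluster was chosen with the mutant and control values of these arrays known, so the difference between mutants and controls is described here without a test. Of the probe sets 10 passed the filter, a log2 level over 6 (the floor) in 3 or more arrays, and they stand for 6 members. Gstm2 and 1 of the 2 Gstm3 probe sets stayed below it in every array.

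Glutathione transferases join the tripeptide glutathione to reactive, electrophilic molecules such as products of lipid oxidation, which are then exported from the cell. The mu class is a family of cytosolic enzymes that work as dimers, and its genes lie side by side as products of local gene duplication. In the brain the class is best known from astrocytes and from the cells that line the ventricles and vessels. G9a places dimethyl marks on lysine 9 of histone H3, a mark of silent chromatin.

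The arrays hold RNA from male mice aged 2 to 5 months, on a background mixed from C57BL/6 (the source of the G9a line) and 129/Sv (the source of the transgenes), backcrossed to C57BL/6 for 2 generations. All mice carried G9a fl/fl and an L10a-GFP ribosome tag (TRAP), driven by Drd1 in D1 neurons or by Drd2 in D2 neurons, which together make up most neurons of the striatum. Mutants also carried Drd1-Cre or Drd2-Cre to match, and controls carried no Cre, so genotype cannot be told apart from the Cre transgene. Mice received 8 injections of saline or of cocaine at 20 mg/kg/day and were taken 2 h after the final one. The 27 arrays formed 8 groups. In D1 neurons these were control saline (2 arrays), control cocaine (4), mutant saline (3) and mutant cocaine (4). In D2 neurons they were control saline (3), control cocaine (4), mutant saline (3) and mutant cocaine (4). Titles number the replicates, and each was taken as a separate mouse, so p-values measure the spread between replicates. The labels of D2 mutant cocaine replicate 4 disagree: its source name says control, while its title, genotype and description say mutant, and it was used as a mutant.

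The labels held on the arrays. Ehmt2 lay between 9.95 and 10.74 in D1 controls and between 8.03 and 9.37 in D1 mutants, and between 10.67 and 11.01 in D2 controls against 8.68 to 9.38 in D2 mutants, with no overlap in either subtype. All 8 tested D1 neuron markers were higher and all 6 tested D2 neuron markers lower in D1 than in D2 controls. Ttr, an abundant choroid plexus transcript, was above 9.5 in 3 arrays, each of them replicate 3 of its group: D1 mutant saline, D2 control cocaine and D1 control cocaine. The difference between the 3' and 5' control probe sets of Gapdh and Actb, a measure of RNA quality, averaged 2.29 in D1 controls, 2.30 in D1 mutants, 2.20 in D2 controls and 2.22 in D2 mutants.

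The members stand on the chromosome in the order Gstm5, Gstm7, Gstm6, Gstm3, Gstm2, Gstm1, Gstm4, with Gstm5 read on the plus strand and the others on the minus strand. RefSeq lists all 7. The 250 bases before an annotated start are shown for Gstm7 and Gstm6, the members with the highest values in mutants against controls, and for Gstm5, which borders Gstm7 at the end of the cluster. They are RefSeq sequences of GRCm38.p6, written 5' to 3' on the strand of the gene: Gstm5 at chr3:107895604-107895853 (plus strand), the first start of Gstm7 at chr3:107931818-107932067 (minus), and the first and second starts of Gstm6 at chr3:107953467-107953716 and chr3:107943735-107943984 (both minus). Capitals mark matches, on either strand, to TGACNNNGC (the core of the antioxidant response element, bound by NRF2), GGGCGG (the GC box) and CCAAT (the CCAAT box). No 2 matches overlap in these windows.
Gstm5: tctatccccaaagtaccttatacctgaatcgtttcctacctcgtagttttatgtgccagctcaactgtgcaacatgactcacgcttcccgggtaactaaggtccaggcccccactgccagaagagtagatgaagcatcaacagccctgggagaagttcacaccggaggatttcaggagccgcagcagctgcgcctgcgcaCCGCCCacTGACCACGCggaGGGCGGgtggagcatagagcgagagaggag
Gstm7, first start: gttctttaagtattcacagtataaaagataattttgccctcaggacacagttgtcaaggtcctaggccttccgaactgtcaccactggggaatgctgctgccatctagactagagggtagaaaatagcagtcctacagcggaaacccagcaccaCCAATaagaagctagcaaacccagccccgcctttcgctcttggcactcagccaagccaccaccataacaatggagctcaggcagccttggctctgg
Gstm6, first start: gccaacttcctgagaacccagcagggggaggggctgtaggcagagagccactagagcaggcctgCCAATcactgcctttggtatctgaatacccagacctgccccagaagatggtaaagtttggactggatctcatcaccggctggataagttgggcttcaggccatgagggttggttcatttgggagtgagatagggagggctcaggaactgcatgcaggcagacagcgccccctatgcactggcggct
Gstm6, second start: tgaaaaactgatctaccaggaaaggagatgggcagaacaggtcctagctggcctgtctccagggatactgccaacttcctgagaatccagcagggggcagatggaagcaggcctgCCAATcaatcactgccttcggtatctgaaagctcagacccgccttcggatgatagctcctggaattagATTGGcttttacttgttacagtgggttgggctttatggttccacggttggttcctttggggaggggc

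The window before Gstm5 holds 1 match to the antioxidant core, 42 bases before the start, between GC boxes at 50 and 30 bases. Those before the first start of Gstm7 and all 3 starts of Gstm6 hold no antioxidant core and no GC box. The second start of Gstm7 lies downstream of the first, and its window holds 1 antioxidant core and 1 GC box. Among all 12 windows of the 7 members no other one held the antioxidant core, which occurs in 10.2% of the 32851 windows of this length in the RefSeq promoter table. The GC box occurs in 32.7% and the CCAAT box in 33.8% of them. CpG dinucleotides, the sites of DNA methylation, had a median of 6 over all windows. They numbered 13 before Gstm5, 4 and 7 before the starts of Gstm7, and 3, 4 and 7 before those of Gstm6. The window of Gstm3 held 4 and that of Gstm2 held 3. Those of Gstm1 held 13 and 8, and each of Gstm4 held 14. Both shown Gstm6 windows share a run of 17 identical bases, the longest among 63 pairs of windows that do not overlap (median 8). These are matches of letters, and no binding was measured.

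Gstm7 had the widest separation between mutants and controls. In D1 controls its probe set 1419072_at read 6.40 and 6.53 with saline and 6.39, 6.48, 6.10 and 6.65 with cocaine. In D1 mutants it read 7.91, 8.56 and 8.22 with saline and 8.62, 8.82, 8.25 and 8.14 with cocaine. Every D1 mutant array lay above every D1 control array, with a gap of 1.26 between the nearest arrays. In D2 controls the values were 7.05, 6.84 and 6.79 with saline and 6.64, 6.81, 6.82 and 6.69 with cocaine. In D2 mutants they were 9.09, 9.13 and 9.10 with saline and 9.29, 9.34, 9.20 and 9.32 with cocaine. The D2 groups were separated by a gap of 2.04, and the 3 D2 mutant saline arrays lay within a narrow band (SD 0.02). Mutants exceeded controls by 1.91 (SE 0.109, 3.76-fold) in D1 neurons and by 2.38 (SE 0.102, 5.20-fold) in D2 neurons, and the D2 difference was the larger by 0.47 (SE 0.150). Without the 3 arrays high in Ttr these differences were 1.86 and 2.39.

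**Figure D1:**
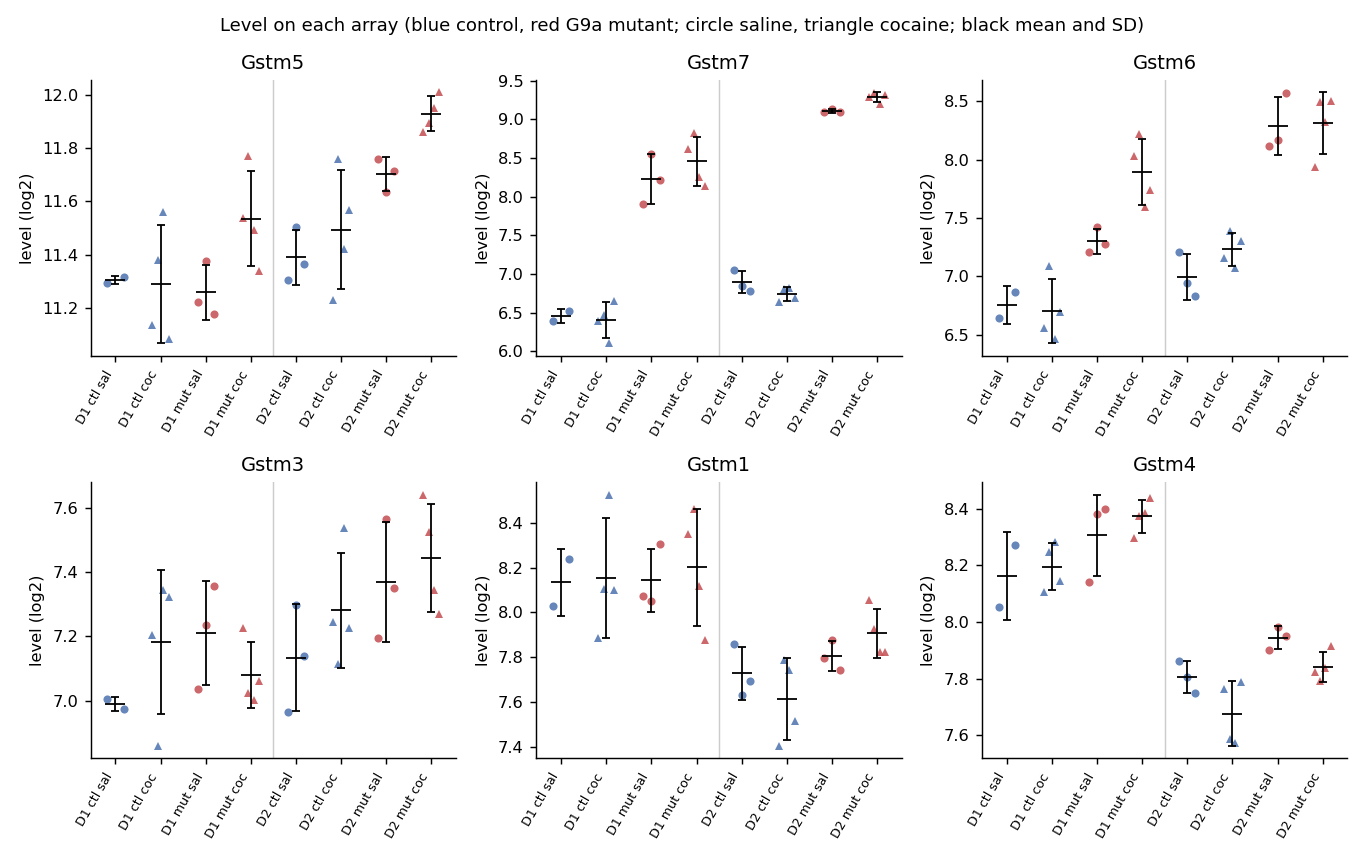
Each panel plots 1 tested member in its order on the chromosome, with the log2 level on the y axis (scales differ between panels) and the 8 groups on the x axis. Points are arrays (blue controls, red mutants, circles saline, triangles cocaine), and black marks are group means with the SD. For Gstm7 and Gstm6 all red points lie above all blue points of the same subtype, while for Gstm3 the colours mix in both subtypes.

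The 8 group means of Gstm7 stood in this order: D1 controls lowest (6.41 with cocaine and 6.46 with saline), then D2 controls (6.74 and 6.89), D1 mutants (8.23 with saline and 8.46 with cocaine) and D2 mutants (9.11 and 9.29). Ranges of arrays overlapped between cocaine and saline of D1 controls, of D2 controls and of D1 mutants, and did not overlap at the other 4 steps of the order.

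A second probe set with the symbol Gstm7, 1425946_at, did not show this pattern. It stayed between 6.71 and 7.21 in all 27 arrays, with a mutant minus control difference of -0.02 (SE 0.081) in D1 and -0.07 (SE 0.076) in D2 neurons. Across the 27 arrays the probe sets of Gstm7 were correlated at r = -0.25, a description over arrays that share their groups. The accession behind 1419072_at is a RefSeq transcript of Gstm7, and the one behind 1425946_at is a cDNA clone outside the RefSeq list. All values of Gstm7 below refer to 1419072_at, and whether the probe sets read different transcripts was not tested.

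**Figure D2:**
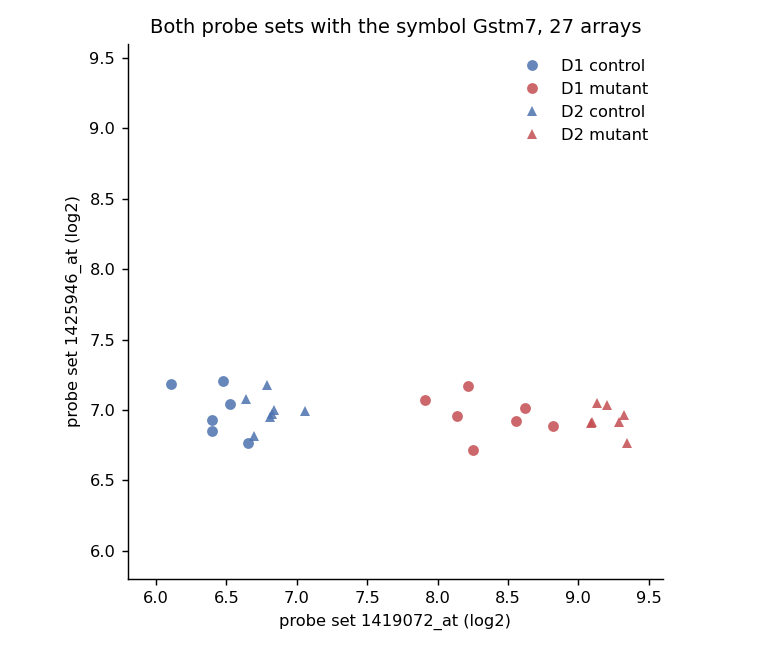
Each point is 1 of the 27 arrays, with the log2 level of Gstm7 probe set 1419072_at on the x axis and of 1425946_at on the y axis, on the same scale. Mutant arrays (red) are shifted to the right of control arrays (blue) on the x axis, and all arrays lie between 6.71 and 7.21 on the y axis.

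Gstm6, the next gene on the chromosome, followed the same direction with smaller differences. Its probe set 1422072_a_at read 6.64 and 6.87 in D1 control saline arrays and 6.56, 7.08, 6.46 and 6.69 in D1 control cocaine arrays. In D1 mutants it read 7.21, 7.42 and 7.28 with saline and 8.03, 8.22, 7.60 and 7.74 with cocaine. The D1 genotypes did not overlap, with a gap of 0.12 between the nearest arrays. D2 controls read 7.21, 6.95 and 6.83 with saline and 7.15, 7.39, 7.07 and 7.30 with cocaine, and D2 mutants read 8.12, 8.17 and 8.57 with saline and 7.94, 8.49, 8.32 and 8.50 with cocaine. D2 genotypes were separated by 0.55. Mutants exceeded controls by 0.87 (SE 0.123, 1.83-fold) in D1 and by 1.19 (SE 0.115, 2.28-fold) in D2 neurons. From lowest to highest, the group means were 6.70 (D1 control cocaine), 6.76 (D1 control saline), 6.99 (D2 control saline), 7.23 (D2 control cocaine), 7.30 (D1 mutant saline), 7.90 (D1 mutant cocaine), 8.29 (D2 mutant saline) and 8.31 (D2 mutant cocaine). Neighbouring groups in this order had no overlapping arrays only at the step from D1 mutant saline to D1 mutant cocaine.

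Gstm5, the transferase on the other side of Gstm7 and the mu-class form known from brain and testis, had a larger genotype difference in D2 than in D1 arrays. In D2 controls 1416842_at read 11.30, 11.50 and 11.36 with saline and 11.23, 11.76, 11.42 and 11.57 with cocaine. In D2 mutants it read 11.76, 11.63 and 11.71 with saline and 11.86, 11.89, 11.95 and 12.01 with cocaine. Mutants lay above controls within saline and within cocaine, and the genotypes overlapped when both drugs were pooled. The share of all genes that separate groups this small was not counted, so nothing is read from this separation. The difference was 0.37 (SE 0.083, 1.29-fold) in D2 neurons. In D1 neurons it was 0.10 (SE 0.089), with controls between 11.08 and 11.56 and mutants between 11.18 and 11.77, so the groups overlapped there. The difference between these values, 0.27 (SE 0.122), uses the contrast that chose the cluster and was not tested.

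The 3 members on the Gstm4 side showed small differences. Gstm4 (1424835_at) was higher in mutants by 0.16 (SE 0.061) in D1 and by 0.15 (SE 0.057) in D2 neurons. Drug by drug its genotypes overlapped only in D1 saline arrays, with gaps of 0.015 (D1 cocaine), 0.040 (D2 saline) and 0.004 (D2 cocaine). Gstm3 (1427474_s_at) differed by 0.06 (SE 0.095) and 0.20 (SE 0.089). Gstm1, an abundant form in liver, differed by 0.03 (SE 0.103) and 0.19 (SE 0.097) on 1416416_x_at. Its other probe sets gave -0.04 and 0.19 (1448330_at), 0.01 and 0.07 (1425627_x_at) and -0.07 and -0.05 (1425626_at) in D1 and D2 neurons. Genotypes also did not overlap for Gstm3 in D1 saline arrays (1427474_s_at, gap 0.031). The same held for Gstm1 in D2 cocaine arrays (gaps 0.032 on 1416416_x_at and 0.054 on 1448330_at). How many genes outside the cluster separate such groups was not counted, for these members or for Gstm7, Gstm6 and Gstm5. Nothing is therefore read from these small gaps. Gstm2 (1416411_at) read 4.12 to 4.59 and the lower Gstm3 probe set (1427473_at) 3.48 to 4.15 across all arrays, under the floor, so no difference was computed for them. The names of 3 of the 12 probe sets, of Gstm1 and Gstm3, end in _x_at or _s_at, which Affymetrix gives to probes that can match transcripts of other genes, so these values may include signal of close paralogs. The ending _a_at of the Gstm6 probe set marks alternative transcripts of 1 gene.

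By the threshold used for all genes, an adjusted p under 0.05, 2 of the 6 tested members would be counted higher in D1 mutants (Gstm7 and Gstm6) and 3 of 6 in D2 mutants (also Gstm5). Over all 12017 genes the share was 4.22% in D1 neurons (3.1% higher and 1.12% lower) and 12.2% in D2 neurons (8.41% higher and 3.82% lower). Since the cluster was picked from this contrast, nothing is read from these counts. The median difference of the 6 tested members was 0.13 in D1 and 0.29 in D2 neurons, against 0.01 and 0.02 over all genes. For the same reason nothing is read from these medians.

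The genes beside the cluster offer a comparison that did not choose the members. The 10 nearest tested genes on each side were taken in RefSeq order, which passed over 8 untested coding genes on the Gstm5 side and 5 on the Gstm4 side. In D1 neurons 0 of these 20 neighbours passed in limma (2 at an unadjusted p under 0.05), and their differences ran from -0.09 to 0.28. In D2 neurons 1 of 20 passed, 4933431E20Rik, with 0.49 (SE 0.093, adjusted p = 0.000579 in limma). It is a long noncoding RNA gene next to Gstm5 whose transcript spans the start of Gstm5 in RefSeq, and whether its probes also read Gstm5 was not tested. The other 19 D2 differences lay between -0.14 and 0.19. Csf1, a growth factor of macrophages on the far side of that RNA, and Ampd2, an AMP deaminase next to Gstm4, were among the neighbours that did not pass in either subtype.

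**Figure D3:**
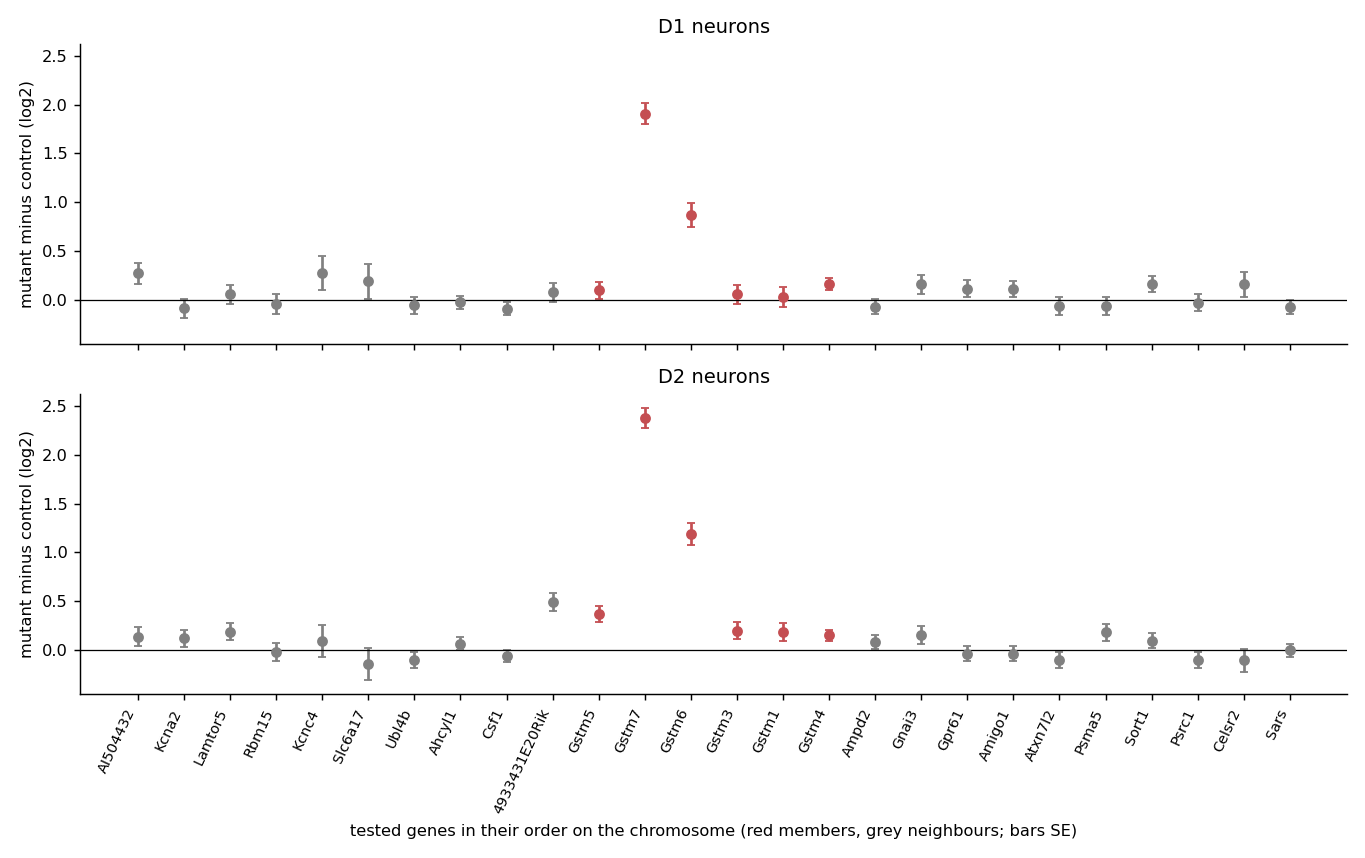
Mutant minus control differences (log2, bars are the SE) for the 6 tested members in red and 20 neighbours in grey, placed by their order on the chromosome, with D1 neurons above and D2 neurons below. Gstm7 and Gstm6 stand side by side at 1.91 and 0.87 in D1 and at 2.38 and 1.19 in D2 neurons, and grey points lie between -0.09 and 0.28 in D1 and between -0.14 and 0.49 in D2 neurons.

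Markers of other cells were read beside these differences. Of 12 astrocyte markers 8 were tested, and Aldh1l1, Aqp4, Gjb6 and Sox9 did not pass the filter. None of the 8 passed between D1 genotypes in limma (1 at an unadjusted p under 0.05). In D2 mutants 2 were higher, the neurotensin receptor Ntsr2 (0.81, adjusted p = 4.04e-06 in limma) and the gap junction protein Gja1 (0.62, adjusted p = 0.0186). Their mean level per array ran from 7.55 to 8.10 in D1 controls, 7.58 to 8.07 in D1 mutants, 6.97 to 7.63 in D2 controls and 7.64 to 7.97 in D2 mutants. With this mean as a covariate, the D2 difference of Gstm1 went from 0.19 to -0.01 and that of Gstm5 from 0.37 to 0.29. The D2 difference of Gstm7 was 2.23 and that of Gstm6 was 1.09. The mean itself did not overlap between D2 genotypes, so this fit cannot separate astrocyte signal from genotype. Nothing is concluded from it. Of 11 tested oligodendrocyte markers 8 were higher in D2 mutants and 1 in D1 mutants, with mean levels of 6.90 to 7.75 in D2 controls and 7.97 to 8.24 in D2 mutants. Of 13 listed, Mog did not pass the filter. The part of either list in the values of the members was not tested further. In ribosome-bound RNA pooled over many cells, a change in the cells sampled cannot be told apart from a change in RNA per cell.

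In 3 tested markers of the ependyma and choroid plexus, of 8 listed, the mean level was 6.51 to 7.95 in D1 controls, 7.13 to 9.30 in D1 mutants, 6.61 to 8.50 in D2 controls and 7.97 to 8.70 in D2 mutants. Folr1, Foxj1, Aqp1, Otx2 and Kcne2 did not pass the filter and were not tested. Of these 3 markers 1 was higher in D1 and 2 in D2 mutants. The klotho gene Kl was higher by 1.55 (adjusted p = 4.12e-11 in limma) in D1 and by 2.23 (adjusted p = 2.73e-15) in D2 mutants. Clic6 was higher in D2 mutants (0.44, adjusted p = 0.021), while Ttr did not pass in D1 (1.18, adjusted p = 0.684) or D2 mutants (0.76, adjusted p = 0.636). Of the endothelial and mural markers 3 of 9 were tested, and Rgs5 was higher in D2 mutants (0.87, adjusted p = 0.00181). Neither of 2 tested microglia markers passed in either subtype, and 1 of them reached an unadjusted p under 0.05 in D2 mutants. Their part in the values of Gstm7 was not tested.

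Markers of neuron types moved in D2 mutants as well. Of 8 tested D1 neuron markers 4 were higher in D2 mutants: Zfp521 (1.04, adjusted p = 7.65e-13 in limma), Isl1 (0.98, adjusted p = 1.71e-06), Slc35d3 (0.56, adjusted p = 0.0174) and Drd1 (0.54, adjusted p = 0.00113). Their mean level ran from 7.45 to 8.002 in D2 controls and from 8.02 to 8.29 in D2 mutants. Of 6 tested D2 neuron markers Drd2 was lower (-0.49, adjusted p = 0.00315) and the other 5 did not pass. Of 3 tested cholinergic interneuron markers Lhx8 was higher (1.17, adjusted p = 5.79e-06). The mean level of these 3 was 6.27 to 7.31 in D2 controls and 7.07 to 7.50 in D2 mutants. Chat and Slc5a7 did not pass the filter. In D1 mutants Zfp521 (0.25, adjusted p = 0.0155) was the 1 marker of these 3 lists that passed. The part of these lists in the values of Gstm7, Gstm6 and Gstm5 was not tested.

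D1 and D2 neurons of control mice were then compared. This contrast did not choose the cluster, but it shares its control arrays with the genotype contrasts that did. Its p-values are therefore not independent of that choice. Of the 6 tested members 4 differed in limma, 2 higher and 2 lower in D1 neurons. Over all genes 29% passed, 11.9% higher and 17.1% lower, against 4 of 6 here, on genes that lie side by side and whose probes may match paralogs. Gstm1 and Gstm4 were higher in D1 neurons, and Gstm7 and Gstm6 were lower.

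Gstm4 showed the firmest subtype difference. It read 8.05 and 8.27 (saline) and 8.10, 8.25, 8.28 and 8.14 (cocaine) in D1 controls, against 7.86, 7.81 and 7.75 (saline) and 7.76, 7.59, 7.57 and 7.79 (cocaine) in D2 controls. No D1 control array overlapped a D2 control array. The D1 minus D2 difference was 0.44 (SE 0.061, adjusted p = 8.49e-06), and its 13 alternative values ran from 0.41 to 0.47.

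Gstm1 read 8.03 and 8.24 (saline) and 7.88, 8.10, 8.53 and 8.10 (cocaine) in D1 controls, against 7.86, 7.63 and 7.69 (saline) and 7.40, 7.79, 7.74 and 7.51 (cocaine) in D2 controls. These ranges touched without overlapping, at 7.88 and 7.86. The difference was 0.47 (SE 0.103, adjusted p = 0.00113). Probe set 1448330_at gave 0.54 (adjusted p = 0.00378), while 1425627_x_at (0.22, adjusted p = 0.132) and 1425626_at (0.06, adjusted p = 0.669) did not pass when all 20136 probe sets were fitted. Of 8 tested astrocyte markers 2 were higher in D1 controls, Aldoc (1.05, adjusted p = 3.6e-05 in limma) and Gja1 (0.60, adjusted p = 0.0168). The other 6 did not pass, and over all genes 11.9% were higher. With the astrocyte mean as a covariate the Gstm1 difference was 0.28 and no longer passed (adjusted p = 0.0976). The part of astrocyte RNA in the Gstm1 difference was not tested.

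On the probe sets that stood for them, Gstm7 and Gstm6 were lower in D1 than in D2 controls by equal amounts on the log2 scale. For Gstm7 the D1 minus D2 difference was -0.38 (SE 0.109, adjusted p = 0.00965), with D1 controls between 6.10 and 6.65 and D2 controls between 6.64 and 7.05. Its other probe set, 1425946_at, gave -0.01 (SE 0.081, adjusted p = 0.949 in limma) when all 20136 probe sets were fitted. The probe sets of Gstm7 thus disagreed here too. For Gstm6 the D1 minus D2 difference was -0.38 (SE 0.123, adjusted p = 0.0199), with D1 controls between 6.46 and 7.08 and D2 controls between 6.83 and 7.39. Neither call held without D1 control saline replicate 1 (-0.35, adjusted p = 0.0534, and -0.33, adjusted p = 0.108), and that of Gstm6 was also lost without D2 control saline replicate 1 (-0.33, adjusted p = 0.0581). With D2 mutant cocaine replicate 4 counted as a control, Gstm7 gave -0.64 and did not pass (adjusted p = 0.0936). Ehmt2 in all 7 D2 mutant arrays, this replicate included, was 8.68 to 9.38, below the 10.67 to 11.01 of D2 controls. Gstm5 (-0.15, adjusted p = 0.232) and Gstm3 (-0.12, adjusted p = 0.371) did not pass. Of the 20 neighbours 5 were higher in D1 controls, led by the potassium channel Kcnc4 (1.09, adjusted p = 4.17e-05), the sorting receptor Sort1 (0.42), the adhesion receptor Celsr2 (0.50), the G protein subunit Gnai3 (0.35) and Ahcyl1 (0.28). Lamtor5 (-0.40), AI504432 (-0.35) and Psrc1 (-0.23) were lower, and 12 did not pass. Over all genes 29% passed, 11.9% higher and 17.1% lower.

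Repeated cocaine was tested against saline in each subtype and genotype. None of the 6 members passed in limma in D1 controls (0.0666% of all genes passed), D1 mutants (0.0915%), D2 controls (0.133%) or D2 mutants (0%). At an unadjusted p under 0.05 the counts over all genes were 1402, 1412, 1130 and 588, and over the members 0, 2, 0 and 0. The pair of members in D1 mutants was Gstm6 and Gstm5. For Gstm6 the saline arrays (7.21, 7.42 and 7.28) lay below all cocaine arrays (8.03, 8.22, 7.60 and 7.74), a difference of 0.60 (SE 0.162, adjusted p = 0.142 in limma). For Gstm5 the difference was 0.28 (SE 0.118, adjusted p = 0.349). In D1 controls the same differences were -0.06 (SE 0.184) and -0.02 (SE 0.133).

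The cocaine effect was also compared between genotypes. For Gstm6 it was larger in D1 mutants than in D1 controls by 0.65 (SE 0.246, adjusted p = 0.319 in limma) and smaller in D2 mutants than in D2 controls by a difference of -0.21 (SE 0.230, adjusted p = 0.969). No gene on the array passed in either of these comparisons (0% and 0%; 1340 and 583 genes at an unadjusted p under 0.05), and members ranged from -0.32 to 0.65 in D1 and from -0.21 to 0.33 in D2 neurons.

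**Figure D4:**
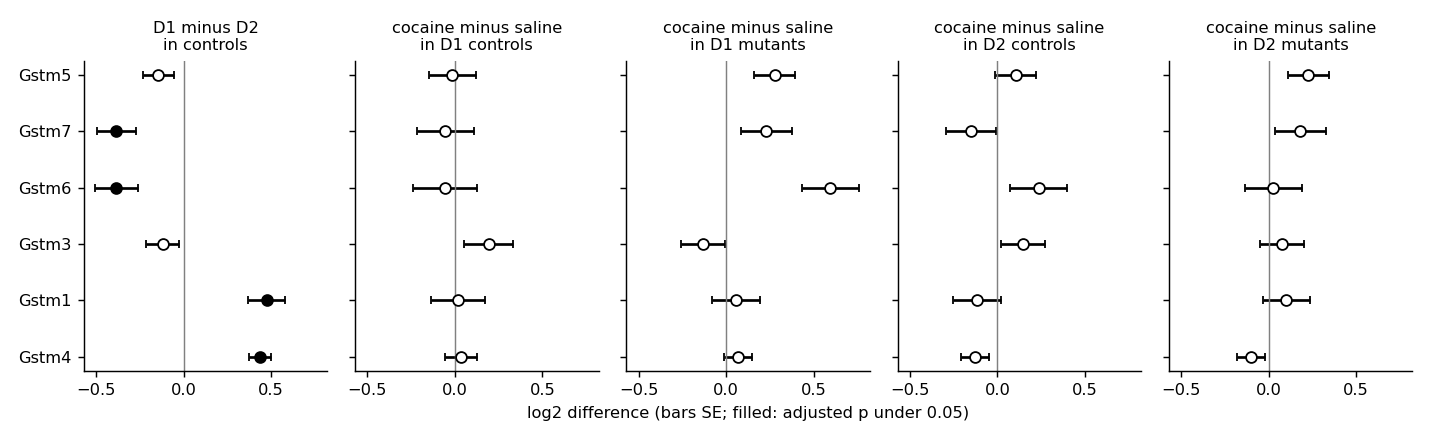
Log2 differences (x axis, bars are the SE) of the 6 tested members, listed by their order on the chromosome, in D1 minus D2 controls and in cocaine minus saline for each subtype and genotype. Filled points have an adjusted p under 0.05 in limma: Gstm7, Gstm6, Gstm1 and Gstm4 in the first panel and none in the others.

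Other genes that use glutathione were read from 3 lists chosen with earlier results of these arrays known. Their counts stand against the shares over all genes given above: 4.22% in D1 mutants, 12.2% in D2 mutants and 29% between subtypes. Of 23 other glutathione transferases and relatives 12 were tested. In D2 mutants 3 rose: Gsta3, an alpha-class transferase (1.28, SE 0.118, adjusted p = 1.36e-08 in limma), the omega-class Gsto1 (0.42, adjusted p = 0.00933) and the chloride channel relative Clic4 (0.32, adjusted p = 0.0123). In D1 mutants 0 rose and 1 fell, the alpha-class Gsta4, known for clearing the lipid aldehyde 4-hydroxynonenal (-0.44, adjusted p = 0.0051), while 2 passed without adjustment. The list median was -0.01 in D1 and 0.09 in D2 mutants. Between subtypes Mgst1, a membrane-bound transferase (1.75, adjusted p = 0.00171), and Gstt1 (0.35) were higher in D1 controls, and Gsta3 (-0.45), Gsto1 (-0.34) and the pi-class Gstp1 (-0.16) were lower.

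Of 34 genes of glutathione synthesis and turnover 26 were tested, and 1 rose in D1 mutants, the secreted peroxidase Gpx3 (0.72, adjusted p = 0.000222 in limma), while the dipeptidase Cndp2 fell (-0.30, adjusted p = 0.0212). In D2 mutants glutaredoxin Glrx (0.44, adjusted p = 0.000209) and the cyclotransferase Ggct (0.41, adjusted p = 0.000593) rose and Ggt6 fell (-0.21, adjusted p = 0.00739). The list median was 0.03 in D1 and 0.10 in D2 mutants. In the subtype comparison 0 were higher and 7 of 26 lower in D1 controls, against 17.1% lower and 29% in all over all genes, led by the cysteine and glutamate transporter Slc1a1 (-0.53, adjusted p = 4.3e-06), Glrx (-0.58), the lipid peroxidase Gpx4 (-0.51) and Gpx1 (-0.47).

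NRF2 is the transcription factor that raises many detoxifying enzymes, mu-class transferases among them, under oxidative stress. Of 30 NRF2 targets and regulators 20 were tested, and in D1 mutants 0 rose and 2 fell, the epoxide hydrolase Ephx1 (-0.44, adjusted p = 0.00743 in limma) and the quinone reductase Nqo1 (-0.35, adjusted p = 0.0295). In D2 mutants 1 rose, the ferritin heavy chain Fth1 (0.27, adjusted p = 0.0253). The list median was -0.01 in D1 and 0.05 in D2 mutants. In D1 against D2 controls 6 were higher, among them Tkt (0.44), Bach1, a repressor of the same sites (0.66), and Nqo1 (0.38), and 2 were lower, with Fth1 at -0.32. With cocaine none of the 3 lists had a member that passed in any subtype or genotype, and between 0 and 5 members per list passed without adjustment.

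**Figure D5:**
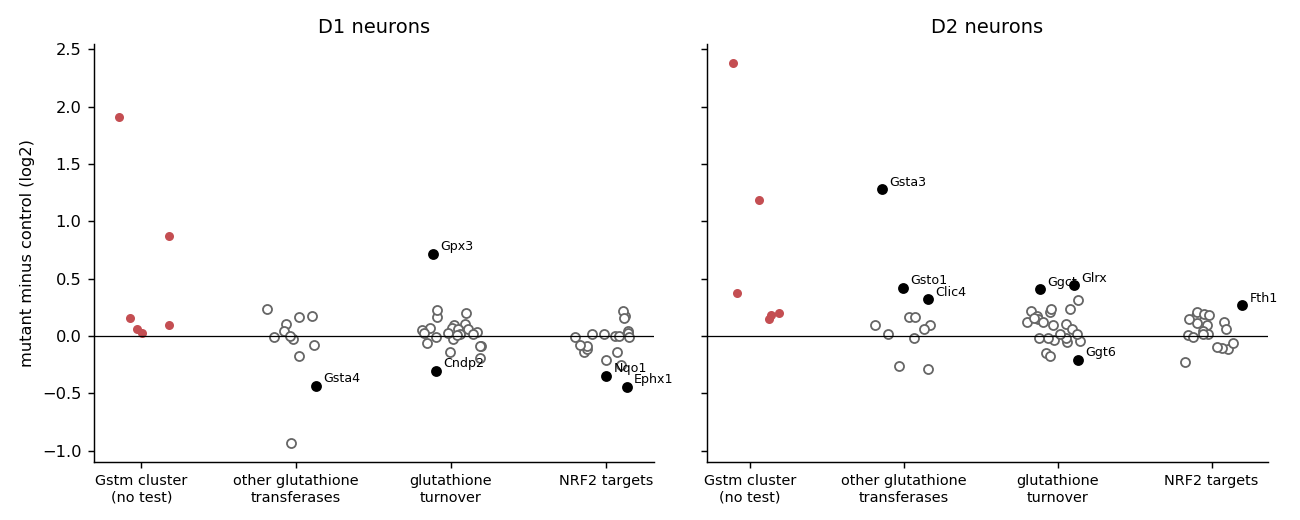
Mutant minus control differences (log2, y axis) in D1 and D2 neurons for the 6 tested members (red, shown without a test) and the 3 lists, where each point is a gene, spread sideways for legibility. Filled black points have an adjusted p under 0.05 and carry their names: Gsta3 at 1.28 in D2 and Gpx3 at 0.72 in D1 neurons are the highest among the lists.

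The genes whose levels were most like each member over the 27 arrays were listed by Pearson's r, as a description over arrays that share genotype, subtype and drug. For Gstm7 they were Gbe1, the glycogen branching enzyme (r = 0.972), the mitochondrial protease Oma1 (0.969) and Kl (0.967). The mutant minus control difference of Gbe1 was 2.65 in D1 and 4.18 in D2 neurons, and that of Oma1 was 0.67 and 0.90. For Gstm6 they were Oma1 (0.930), Gstm7 itself (0.924) and the guidance factor Sema3a (0.911). Gstm5 was most like Dtnb (0.908), Vps28 (0.906) and Ssu72 (0.883), with D2 genotype differences of 0.32, 0.20 and 0.25.

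Other genes were most like the remaining members. Gstm1 was most like S100a1 (0.858), Aldoc (0.857) and Clu (0.849), of which Aldoc is on the astrocyte list. Gstm4 was most like Tub (0.942), Zfp512 (0.930) and Zfp521 (0.929), the last being a D1 neuron marker that was higher in D1 controls by 2.61. Gstm3 was most like Hint3, Ctu2 and BC030500, at r of 0.741 to 0.746. No other member was among the 3 genes most like Gstm7, Gstm5, Gstm1, Gstm4 or Gstm3.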

How the data were processed

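The authors deposited log2 values for 45101 probe sets. The submitters' processing notes name RMA, which corrects background, normalizes by quantiles and summarises probes, and Affymetrix Expression Console 1.1. Genes were named from the 2016 array annotation (34945 probe sets with 1 symbol, 932 with several, 9160 with none, 64 controls). The probe set of highest mean over all arrays, mutants included, stood for a gene, and 12017 genes above 6 in at least 3 arrays were tested. All 27 arrays were fitted in limma 3.58.1 (R 4.3.3) with 8 group means, drugs weighted equally in genotype and subtype contrasts. Benjamini-Hochberg adjustment ran over all tested genes within each contrast. A second fit held all 20136 probe sets above that floor. The members and lists were chosen with earlier results of these data known. Named were all members, up to 4 passing genes per list and contrast by smallest p, passing neighbours, and the 3 genes most like each member; Csf1, Ampd2, the passing markers and other list genes were named after their values were seen. The script was tested on simulated data. The number of arrays limits the precision. Alternatives covered probe set choice, filters, scaling, moderation, weights, a replicate block, covariates and left-out arrays.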

Additional observations from a re-analysis of the deposited data

Results flagged for a closer look

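One of 48 groups of 4 arrays held an array far from the other 3. In D2 control cocaine arrays the Gstm1 probe set 1425626_at read 5.92, 5.91, 5.91 and 5.75, and the gap of the lowest array to the next was 0.909 of the whole range. Chance sets off this rule in about 1 of 20 groups, and these values lie under the floor of 6.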

How the results depend on the processing

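The mutant minus control differences of Gstm7 (1.86 to 2.00 in D1, 2.12 to 2.39 in D2 neurons) and Gstm6 (0.84 to 0.92 and 1.03 to 1.19) stayed above 0 under all 14 alternatives. With D2 mutant cocaine replicate 4 as a control Gstm7 gave 2.12 in D2 neurons, and with the astrocyte covariate Gstm1 gave -0.009. Leaving out each array, Gstm7 ran from 1.83 to 1.99 in D1 and 2.35 to 2.42 in D2, and Gstm6 from 0.81 to 0.94 and 1.12 to 1.25. Genes outside the cluster that passed between genotypes numbered 505 in D1 and 1467 in D2 neurons; array weights gave 966 and 2289, the astrocyte covariate 516 in D2, and replicate 4 as a control 853 in D2, while leaving out arrays gave 317 to 547 and 1111 to 1791. Without D1 control saline replicate 1 the D1 count was 317. Members passing between subtypes numbered 2 to 4 when arrays were left out (2 without D1 control saline replicate 1) and 3 to 5 otherwise; Gstm5 passed with array weights (-0.20, adjusted p = 0.045 in limma). All 1476 alternative values of the members in cocaine contrasts stayed on their side of the threshold, although the count of all genes passing ran from 0 to 461 in D1 controls, 6 to 218 in D1 mutants, 4 to 124 in D2 controls and 0 to 10 in D2 mutants. The causes were not tested.

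Arrays with the same replicate number in their titles deviated together at r of -0.375 to 0.469 in D1 and -0.395 to 0.366 in D2 neurons. For arrays with different numbers r ran from -0.514 to 0.450 in D1 and -0.311 to 0.456 in D2 neurons. These ranges show no pairing of mice by number but cannot exclude it. With the number as a replicate block 4 members still passed between subtypes, Gstm7 gave 1.95 and 2.38 between genotypes, 627 and 1625 other genes passed between genotypes, and Gstm6 in D1 mutants had a cocaine difference of 0.62 (adjusted p = 0.0748 in limma). The block changed no call of a member.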
